A study of Homo sapiens with 12 samples.

Results

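Expression of 10 genes for nucleotide excision repair, damage bypass and the linked GADD45 stress response was followed in HCT116 cells with and without knockdown of the transcription factor RFX7. The genes were DDB1, DDB2, XPC, XPA, ERCC5, POLH, POLK, REV3L, GADD45A and GADD45B. They were taken by gene name as p53-linked members of these groups, and all 10 were found among the 23195 genes that the authors' deposited tables list. HCT116 is an established cell line from a human colorectal carcinoma, with p53 intact. Cells received siRNA, either a control (siControl) or one that targets RFX7 (siRFX7), and were then given 10 µM Nutlin-3a or its solvent DMSO for 24 h. Nutlin-3a blocks the p53 inhibitor MDM2 and so raises p53 activity without adding DNA damage. The 4 groups were siControl with DMSO, siControl with Nutlin-3a, siRFX7 with DMSO and siRFX7 with Nutlin-3a, each with 3 libraries of polyA RNA. All groups shared the transfection of an siRNA, and the number of different siRNAs against RFX7 is not given in the sources used here. The labels do not say that replicates came from separate cultures, so p-values measure only the spread between these samples, which may be technical.

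Nucleotide excision repair removes bulky, helix-distorting lesions such as those made by ultraviolet light. DDB1 and DDB2 form a damage-binding complex that hands lesions to XPC. XPA and other factors then check the lesion, and nucleases that include the ERCC5 protein (XPG) cut the strand on either side. Lesions that remain at replication can be bypassed by translesion polymerases, among them the products of POLH (polymerase eta), POLK (polymerase kappa) and REV3L (the catalytic subunit of polymerase zeta). GADD45 proteins bind PCNA and the kinase MAP3K4 and act in growth arrest, stress signalling and repair. DDB2, XPC, POLH and GADD45A are textbook p53 target genes.

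Facts that bear on all groups were as follows. RFX7 itself was lower in the libraries labelled siRFX7, with log2 fold changes, per the authors' deposited tables, of -2.35 under DMSO and -2.14 under Nutlin-3a. MDM2 and CDKN1A, which p53 activates, rose with Nutlin-3a by 3.99 and 4.46 in siControl cells and by 3.30 and 3.53 in siRFX7 cells (log2, the authors' deposited tables). The summed normalized counts, over the 20026 genes with a level in every group, were 25915992 to 27407526 per library on average, and the depth of single libraries was not analysed here. Of 8 epithelial markers 6 were listed (CDX1 and LGALS4 were not), with 0.311% to 0.659% of all counts in each group. Of 12 markers of blood, vessel, fibroblast and muscle cells 8 were listed, and PTPRC, CD3E, CD68 and PECAM1 were not. The 6 of these with a level in every group summed to 0.00216% (DMSO) and 0.00509% (Nutlin-3a) of counts in siControl cells and to 0.00431% (DMSO) and 0.00739% (Nutlin-3a) in siRFX7 cells, mostly ACTA2 (96.1 to 1147 normalized counts) and COL1A1 (349 to 515). Their part in the results was not tested. In bulk RNA a different share of cells and a different amount of RNA per cell cannot be told apart.

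Levels are given below as the mean normalized count of a group (counts divided by the authors' size factors), rebuilt from the authors' deposited tables, with the standard error of that mean (SE, n = 3 libraries per group). These errors come from the DESeq2 model, with a single dispersion (modelled spread between replicates) per gene shared by all groups. They are thus not measured from the 3 libraries of each group alone. The spread between replicates that these errors imply was a coefficient of variation of 3.7% for DDB1 and 4.92% to 5.42% for DDB2. It was 10.0% to 11.1% for XPA, POLK and REV3L, and 22.4% to 27.6% for ERCC5, the least abundant of the genes. A gene is called changed at a DESeq2 adjusted p below 0.05 over all genes of a table.

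Several patterns stood out among the 10 genes, and each is described with its values below. Nutlin-3a raised POLH, GADD45A and XPC under both siRNAs, and REV3L and DDB1 by smaller amounts. DDB2 rose with Nutlin-3a in siControl cells but started higher in siRFX7 cells, where its response to Nutlin-3a was not called. In Nutlin-3a, GADD45A and REV3L were called lower in siRFX7 than in siControl cells, calls that ended under 3 alternatives (a t reference, Holm adjustment and a minimum log2 fold change of 0.58), and for REV3L the interaction was not called. XPC was called lower there too, a call that ended under Holm adjustment and that minimum but not under the t reference. XPA and GADD45B were called in none of the 4 comparisons.

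**Figure D1:**
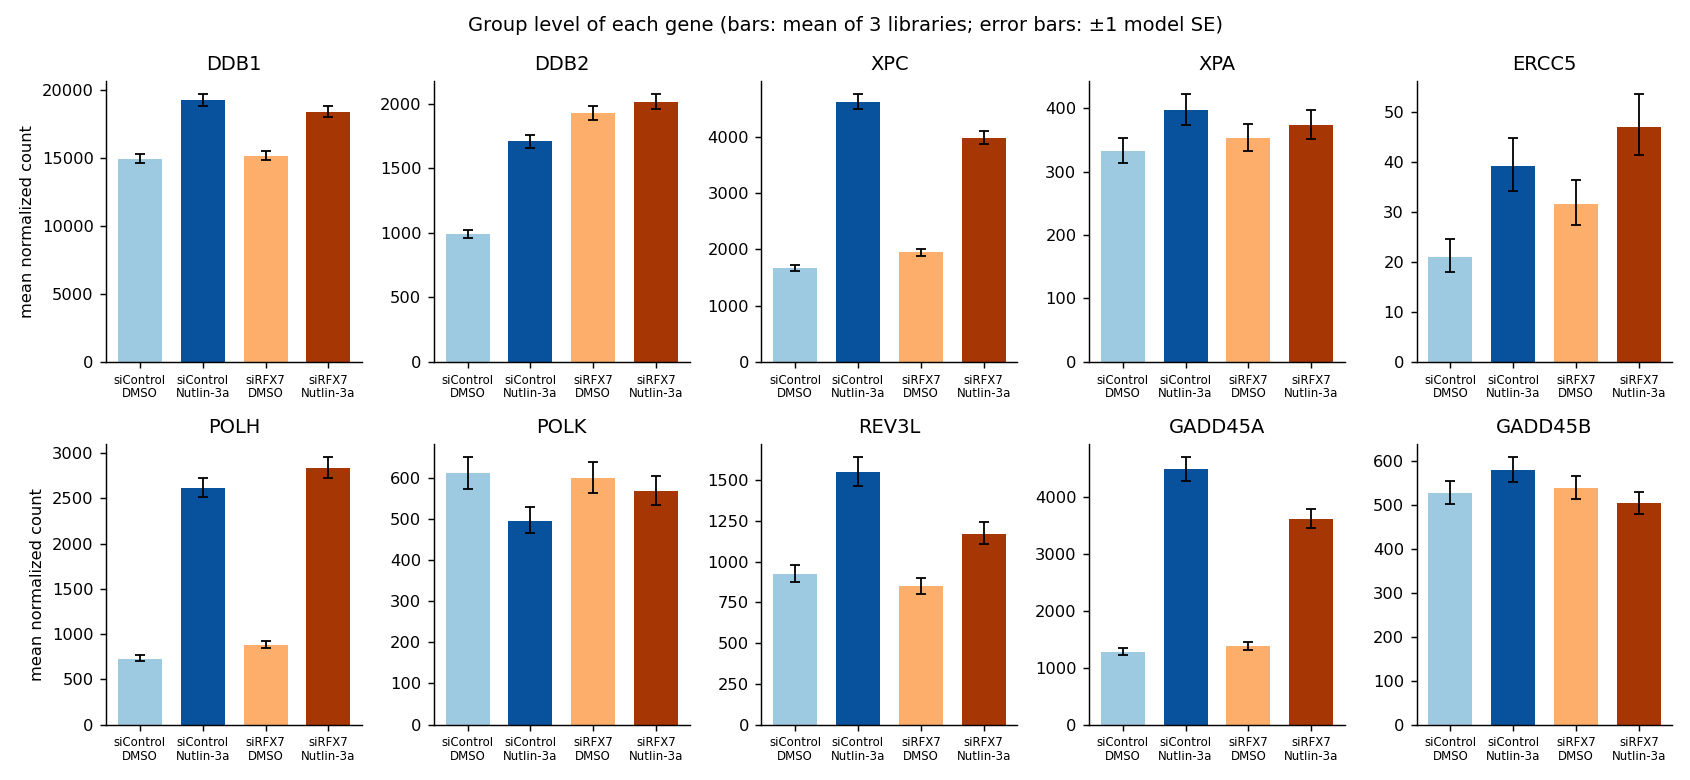
Mean normalized count of each of the 10 genes (one panel per gene) in the 4 groups, with bars of 1 SE on either side of each rebuilt group mean. DDB2 is lowest in siControl DMSO and close together in the other 3 groups, whereas POLH, XPC and GADD45A separate mainly by Nutlin-3a.

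The damage recognition genes were all raised by Nutlin-3a in siControl cells, by different amounts. DDB2 (ENSG00000134574, chromosome 11 from 47214465 to 47239240, plus strand, GRCh38) encodes the lesion-binding subunit, which is lost in xeroderma pigmentosum group E. In DMSO its level was 988 ± 30.9 (SE, n = 3) in siControl and 1928 ± 55.0 in siRFX7 cells, and with Nutlin-3a it was 1708 ± 49.4 and 2014 ± 57.2. The siControl DMSO group was thus the low one, and the other 3 groups lay at least 1.73-fold above it. Nutlin-3a added 719 normalized counts in siControl and 86.0 in siRFX7. DDB2 rose by 0.79 on the log2 scale with Nutlin-3a in siControl per the authors' deposited table (SE 0.06, DESeq2 adjusted p 2.13e-36). Under siRFX7 the value per the authors' deposited table was 0.06 (SE 0.06, DESeq2 adjusted p 0.426), with a 95% interval of -0.05 to 0.18.

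Knockdown of RFX7 alone raised DDB2 1.95-fold. The authors' deposited tables give log2 fold changes for siRFX7 over siControl of 0.96 in DMSO (SE 0.06, DESeq2 adjusted p 9.84e-54) and 0.24 in Nutlin-3a (SE 0.06, DESeq2 adjusted p 3.69e-04). So DDB2 was called higher after the knockdown in both treatments, and by more in DMSO. The call in Nutlin-3a ended under Holm adjustment (adjusted p 0.818; 5.57e-05 to 0.818 over all alternatives) and under a minimum absolute log2 fold change of 0.58. The Nutlin-3a comparison in siControl and the knockdown comparison in DMSO share the siControl DMSO libraries, so the low level of that group enters both values. CDKN1A also was higher with siRFX7 in DMSO, with a log2 fold change of 1.29 per the authors' deposited table (SE 0.10, DESeq2 adjusted p 5.01e-39).

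The promoter letters of DDB2 are shown because p53 binds a pair of its consensus decamers, and such a pair lies beside one of its annotated starts. The sequence is RefSeq GRCh38.p14, chr11:47214975-47215004, plus strand, and capitals mark both decamers, which match the p53 consensus decamer with no mismatch and lie 1 base apart. The first capital is base 6, counting as base 1 the second of the DDB2 starts in the RefSeq table.
DDB2: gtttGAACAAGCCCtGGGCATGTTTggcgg

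Windows of 300 bases (250 before and 50 after a start) were searched on both strands, 11 of them for 9 of the genes. No window was given for GADD45A, so its promoter was not searched. A pair of exact decamers 0 to 13 bases apart was found in 10 of 35116 windows in the table (0.0285%), and DDB2 was the only one of the 9 genes to hold it. The search for a pair was added after the values were seen. A single exact decamer was in 6.63% of windows and, among the 9 genes, only in DDB2. With up to 1 mismatch a decamer was in 32.6% of windows and in those of DDB2, XPA and GADD45B. The DDB2 window also held TTTGAA, letters of the cell cycle homology region, overlapping the first decamer, and 15.2% of windows hold these letters. TTCGAA, in 1.45% of windows, was in none of the 11. These matches describe letters only.

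XPC (ENSG00000154767, chromosome 3 from 14145147 to 14178783, minus strand) encodes the protein that senses the distorted helix and starts repair across the genome. Its level in siControl cells was 1670 ± 51.2 (SE, n = 3) with DMSO and 4620 ± 132 with Nutlin-3a, and in siRFX7 cells 1948 ± 58.8 with DMSO and 3986 ± 114 with Nutlin-3a. Both Nutlin-3a groups were clear of both DMSO groups, and siRFX7 groups lay between the siControl groups. XPC rose by 1.47 with Nutlin-3a in siControl (SE 0.06, DESeq2 adjusted p 2.22e-128) and by 1.03 in siRFX7 (SE 0.06, DESeq2 adjusted p 7.56e-65) in log2 units of the authors' deposited tables. That is a 2.77-fold and a 2.05-fold rise.

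The knockdown values of XPC were called in opposite directions in the 2 treatments, by small amounts. For siRFX7 over siControl the authors' deposited tables give 0.22 in DMSO (SE 0.06, DESeq2 adjusted p 0.00205) and -0.21 in Nutlin-3a (SE 0.06, DESeq2 adjusted p 0.00172). Both calls ended under Holm adjustment and under a minimum absolute log2 fold change of 0.58, and over all alternatives the adjusted p ranged from 6.45e-05 to 1 in DMSO and from 0.00142 to 1 in Nutlin-3a. Of the 10 genes XPC was the 1 called higher in DMSO and lower in Nutlin-3a, a pattern seen in 48 of 19393 genes (0.248%), with 129 genes (0.665%) called in opposite directions either way round. The check gene MDM2 had the same pattern per the authors' deposited tables, at 0.49 in DMSO and -0.21 in Nutlin-3a (DESeq2 adjusted p 1.19e-12 and 0.00456). XPC exons share 23.8% of their bases with the antisense gene AC093495.1, 8.61% with AC090004.1 and 6.63% with LSM3 on the other strand. Whether counting used strand is not given in the sources used here, so reads of XPC and of these genes may not be told apart. LSM3 itself fell with Nutlin-3a, by 1.25 on the log2 scale in siControl per the authors' deposited table.

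DDB1 (ENSG00000167986, chromosome 11 from 61299451 to 61342596, minus strand) encodes the adaptor that ties DDB2 and many other receptors to CUL4 ubiquitin ligases. It was the most abundant of the 10 genes in counts, at 14938 ± 320 (SE, n = 3) with DMSO and 19261 ± 410 with Nutlin-3a in siControl cells, and at 15163 ± 325 and 18411 ± 392 in siRFX7 cells. The treatments separated the DDB1 levels more than the siRNAs did. DDB1 rose with Nutlin-3a by 0.37 in siControl (SE 0.04, DESeq2 adjusted p 3.61e-16) and by 0.28 in siRFX7 (SE 0.04, DESeq2 adjusted p 8.77e-10) in log2 units of the authors' deposited tables. The knockdown values for DDB1 per the authors' deposited tables were 0.02 in DMSO (DESeq2 adjusted p 0.777) and -0.07 in Nutlin-3a (DESeq2 adjusted p 0.284), neither of them called. Smaller shares of exon bases overlap genes on the other strand for DDB1 (3.73%, with TKFC), POLK (8.28%, with AC010245.1) and REV3L (4.64%, with AL080317.3), and DDB2, XPA, GADD45A and GADD45B have no such overlap.

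Of the genes that act after recognition, ERCC5 was called for Nutlin-3a in siControl and XPA was not. XPA (ENSG00000136936, chromosome 9 from 97674909 to 97697357, minus strand) encodes the scaffold that verifies the lesion and positions the nucleases. In DMSO its level was 332 ± 20.3 (SE, n = 3) in siControl and 353 ± 21.4 in siRFX7 cells, and with Nutlin-3a it was 397 ± 23.8 and 374 ± 22.5. Neighbouring XPA levels in that order of size overlapped within 1 SE, and the lowest and highest did not. The Nutlin-3a value for XPA in siControl was 0.26 on the log2 scale per the authors' deposited table (SE 0.12, DESeq2 adjusted p 0.0826), with a 95% interval of 0.01 to 0.50. Its other values per the authors' deposited tables were 0.08, 0.09 and -0.09, with DESeq2 adjusted p of 0.651 to 0.673.

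ERCC5 (ENSG00000134899, chromosome 13 from 102807146 to 102876001, plus strand) encodes the nuclease that cuts on the 3′ side of the lesion. Its level in siControl cells was 21.0 ± 3.35 (SE, n = 3) with DMSO and 39.2 ± 5.27 with Nutlin-3a, and in siRFX7 cells 31.6 ± 4.49 with DMSO and 47.1 ± 6.07 with Nutlin-3a. ERCC5 rose by 0.90 with Nutlin-3a in siControl on the log2 scale per the authors' deposited table (SE 0.30, DESeq2 adjusted p 0.00805). In siRFX7 the authors' deposited table gives 0.57 (SE 0.28, DESeq2 adjusted p 0.0841). The 2 knockdown values of ERCC5 were 0.59 in DMSO and 0.26 in Nutlin-3a per the authors' deposited tables (adjusted p from DESeq2 0.144 and 0.527). The ERCC5 count is uncertain, because 63.2% of its exon bases (5213 of 8242) lie also in the readthrough gene BIVM-ERCC5 on the same strand, and 19.1% in BIVM. BIVM-ERCC5 was not listed in the tables, and BIVM, at 256 to 296 normalized counts, was not called in any comparison.

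**Figure D2:**
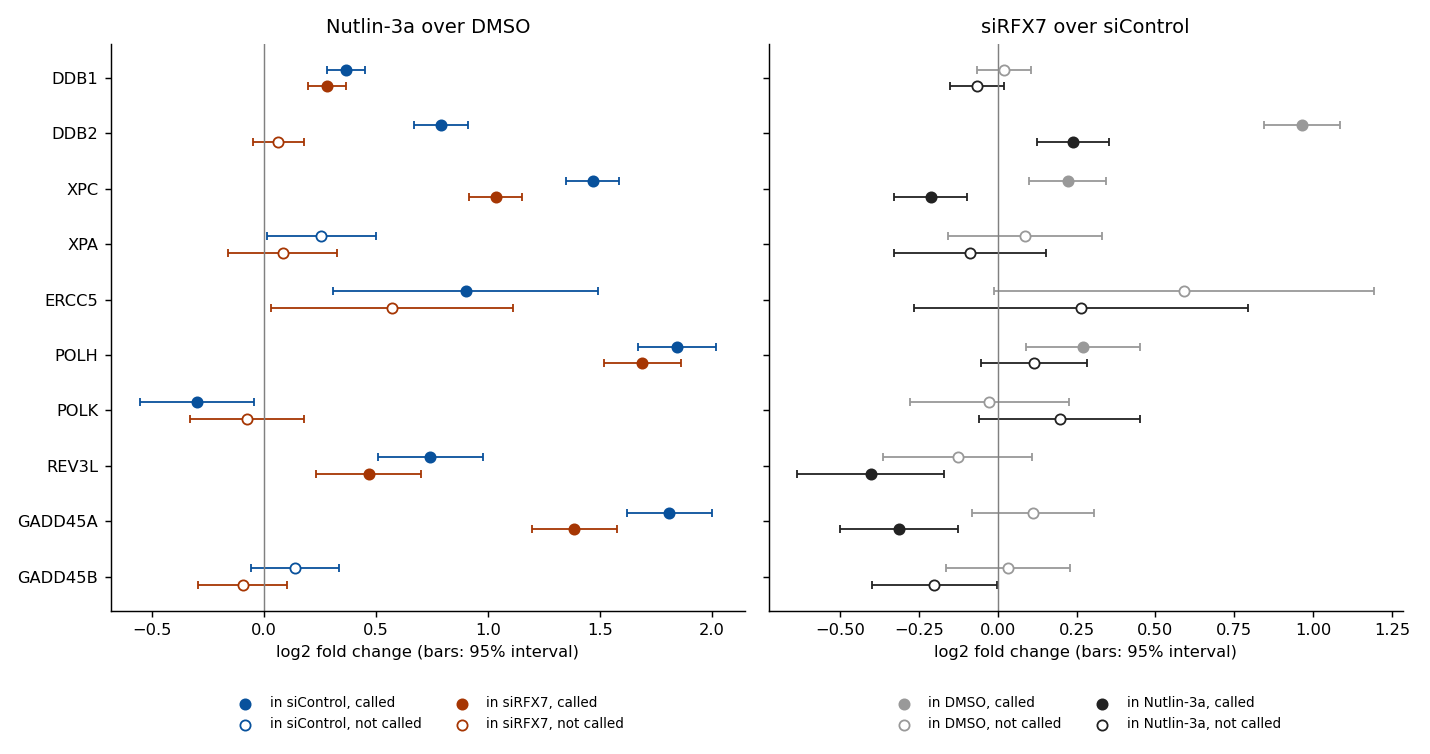
Log2 fold changes of the 10 genes per the authors' deposited tables with 95% intervals, for Nutlin-3a over DMSO (left) and for siRFX7 over siControl (right), with filled points for genes called at a DESeq2 adjusted p below 0.05. POLH, GADD45A and XPC lie farthest right on the left panel, and DDB2 in DMSO, at 0.96, on the right panel.

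The 3 bypass polymerases differed from one another. POLH (ENSG00000170734, chromosome 6 from 43576150 to 43615660, plus strand) encodes polymerase eta, which copies past thymine dimers and is missing in the variant form of xeroderma pigmentosum. In DMSO its level was 730 ± 33.2 (SE, n = 3) in siControl and 880 ± 39.3 in siRFX7 cells, and with Nutlin-3a it was 2618 ± 109 and 2835 ± 118. Nutlin-3a added 1888 normalized counts in siControl and 1956 in siRFX7. POLH rose by 1.84 in siControl (SE 0.09, DESeq2 adjusted p 4.25e-93) and by 1.69 in siRFX7 (SE 0.09, DESeq2 adjusted p 1.92e-80) in log2 units of the authors' deposited tables, or 3.59-fold and 3.22-fold. Among the 10 genes this was the largest log2 value under each siRNA. The knockdown raised POLH by 0.27 in DMSO in the authors' deposited table (SE 0.09, DESeq2 adjusted p 0.0147), a call that ended under a t reference with 8 degrees of freedom (adjusted p 0.0832; 0.0023 to 1 over all alternatives). In Nutlin-3a the knockdown value was 0.12 per the authors' deposited table (SE 0.09, DESeq2 adjusted p 0.346).

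REV3L (ENSG00000009413, chromosome 6 from 111299028 to 111483715, minus strand) encodes the subunit of polymerase zeta that extends a strand beyond a lesion. Its level in siControl cells was 925 ± 54.7 (SE, n = 3) with DMSO and 1548 ± 89.5 with Nutlin-3a, and in siRFX7 cells 848 ± 50.3 with DMSO and 1172 ± 68.5 with Nutlin-3a. The siControl Nutlin-3a group was the high one, and the 2 DMSO groups overlapped within 1 SE. REV3L rose by 0.74 with Nutlin-3a in siControl (SE 0.12, DESeq2 adjusted p 2.91e-09) and by 0.47 in siRFX7 (SE 0.12, DESeq2 adjusted p 3.73e-04) in log2 units of the authors' deposited tables. The knockdown value was -0.13 in DMSO (DESeq2 adjusted p 0.486) and -0.40 in Nutlin-3a (SE 0.12, DESeq2 adjusted p 0.004) per the authors' deposited tables. Thus REV3L was called lower after the knockdown in Nutlin-3a, at 0.757 times the siControl level, and this call too ended under the t reference (adjusted p 0.0538; 0.0035 to 1 over all alternatives).

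The promoter letters of REV3L are shown because RFX proteins bind the X-box, whose core letters GTTGCCA were found in 1 of the 9 genes with a window. The sequence is RefSeq GRCh38.p14, chr6:111483185-111483214, minus strand, and the capitals are the reverse complement of GTTGCCA, the first of them at base 16, counting as base 1 the second of the REV3L starts in the table.
REV3L: catcatcatcaTGGCAACaagagctgcagc

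GTTGCCA was in 4.08% of the 35116 windows, and the looser form GTTGCNA in 9.21%. The looser form was also in the second of the DDB2 windows, 208 bases before its start. These letters alone do not make a binding site, and no binding was measured.

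POLK (ENSG00000122008, chromosome 5 from 75511756 to 75601144, plus strand) encodes polymerase kappa, which copies past bulky adducts in the minor groove. In DMSO its level was 610 ± 38.5 (SE, n = 3) in siControl and 599 ± 37.8 in siRFX7 cells, and with Nutlin-3a it was 495 ± 31.7 and 568 ± 36.0. The siControl Nutlin-3a group was lowest, and the other 3 overlapped within 1 SE. POLK fell by 0.30 with Nutlin-3a in siControl on the log2 scale per the authors' deposited table (SE 0.13, DESeq2 adjusted p 0.0482), the only called fall with Nutlin-3a among the 10 genes. This call ended under the t reference (adjusted p 0.115; 0.031 to 1 over all alternatives) and under an adjusted p threshold of 0.01. In siRFX7 the authors' deposited table gives -0.08 for POLK (DESeq2 adjusted p 0.696). Its knockdown values per the authors' deposited tables were -0.03 in DMSO and 0.20 in Nutlin-3a (DESeq2 adjusted p 0.91 and 0.279), and the first of them is above 0 under both other scalings tried.

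The 2 GADD45 genes also differed. GADD45A (ENSG00000116717, chromosome 1 from 67685061 to 67688338, plus strand) encodes a small stress protein that restrains the cell cycle and activates p38 and JNK signalling through MAP3K4. Its level in siControl cells was 1278 ± 61.9 (SE, n = 3) with DMSO and 4480 ± 208 with Nutlin-3a, and in siRFX7 cells 1380 ± 66.6 with DMSO and 3607 ± 168 with Nutlin-3a. The DMSO groups overlapped within 1 SE, and the Nutlin-3a groups did not. GADD45A rose by 1.81 in siControl (SE 0.10, DESeq2 adjusted p 3.25e-76) and by 1.39 in siRFX7 (SE 0.10, DESeq2 adjusted p 4.35e-45) in log2 units of the authors' deposited tables. For siRFX7 over siControl the authors' deposited tables give 0.11 in DMSO (DESeq2 adjusted p 0.449) and -0.31 in Nutlin-3a (SE 0.10, DESeq2 adjusted p 0.00541). GADD45A in siRFX7 Nutlin-3a was therefore 0.805 times its siControl level, a call that ended under the t reference (adjusted p 0.0594; 0.00474 to 1 over all alternatives).

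GADD45B (ENSG00000099860, chromosome 19 from 2476122 to 2478259, plus strand) encodes a relative known for induction by NF-kappaB and TGF-beta. In DMSO its level was 526 ± 26.0 (SE, n = 3) in siControl and 538 ± 26.5 in siRFX7 cells, and with Nutlin-3a it was 579 ± 28.3 and 504 ± 25.1. All 4 groups lay within a narrow range. The values with Nutlin-3a were 0.14 in siControl and -0.10 in siRFX7 in log2 units of the authors' deposited tables (adjusted p from DESeq2 0.284 and 0.499). Those for the knockdown per the authors' deposited tables were 0.03 in DMSO and -0.20 in Nutlin-3a (DESeq2 adjusted p 0.856 and 0.126).

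Counted together, the Nutlin-3a response was mostly upward. The genes were chosen as p53-linked, so a rise with a p53 activator is built into the choice. The counts describe these 10 genes and are no test of the pathways. In siControl, 7 of the 10 genes were called higher and 1 lower per the authors' deposited table, where 43.2% of all genes were called, 22% higher and 21.2% lower. The median log2 value of the 10 was 0.77, and that of all genes 0.02. In siRFX7, 5 of the 10 were called, each of them higher, per the authors' deposited table (41.4% of all genes called, 21.7% higher and 19.7% lower), with a median of 0.37 beside -0.02 for all genes. The 5 were DDB1, XPC, POLH, REV3L and GADD45A.

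The knockdown comparisons gave fewer calls. In DMSO, 3 of the 10 genes (DDB2, XPC and POLH) were called, each of them higher, per the authors' deposited table, where 29% of all genes were called and 13.5% were higher. The median was 0.10, and that of all genes was -0.0032. In Nutlin-3a, DDB2 was called higher and XPC, REV3L and GADD45A lower per the authors' deposited table, where 28.6% of all genes were called, 15% higher and 13.6% lower. The median of the 10 was -0.08 beside 0.00 for all genes. The share called among the 10 is near that background in DMSO, and so is no result about these genes. With Holm adjustment, DDB2 in DMSO was the 1 knockdown call left in the 2 treatments, and so it was with a minimum absolute log2 fold change of 0.58.

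Whether the Nutlin-3a response itself differed between the siRNAs was tested as an interaction, the log2 fold change in siRFX7 minus that in siControl. The 3 genes that passed all had a smaller log2 value with Nutlin-3a in siRFX7. DDB2 had an interaction of -0.73 (SE 0.08, adjusted p 2.95e-15 by the z test), which ranks 69 of 23195 genes by size against its error. XPC had an interaction of -0.435 (SE 0.09, adjusted p 2.29e-05 by the z test). For GADD45A the interaction was -0.42 (SE 0.14, adjusted p 0.036 by the z test). XPC and GADD45A still rose under siRFX7, and DDB2 was the one whose rise was not called there. Under the t reference with 8 degrees of freedom only the DDB2 interaction was called (adjusted p 0.00875), with 0.0635 for XPC and 0.27 for GADD45A. Over all alternatives the adjusted p ranged from 1.45e-16 to 0.00875 for DDB2, from 4.17e-06 to 0.0635 for XPC and from 0.0207 to 1 for GADD45A. Over all genes, 6.2% were called for the interaction, 2.92% below 0 and 3.28% above 0.

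No interaction was called for the other 7 genes, and their intervals show what size of difference remains possible. The 95% interval was -0.40 to 0.09 for POLH, -0.61 to 0.06 for REV3L and -0.21 to 0.03 for DDB1. For GADD45B it was -0.51 to 0.04, for XPA -0.52 to 0.17, for POLK -0.13 to 0.58 and for ERCC5 -1.13 to 0.47. The ERCC5 interval was the widest of these and says least. Of the 10 values 9 were below 0, with a median of -0.25, beside 0.00 for all genes. MDM2 and CDKN1A also had interactions below 0, at -0.69 and -0.93 (adjusted p 1.90e-12 and 7.17e-10 by the z test).

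**Figure D3:**
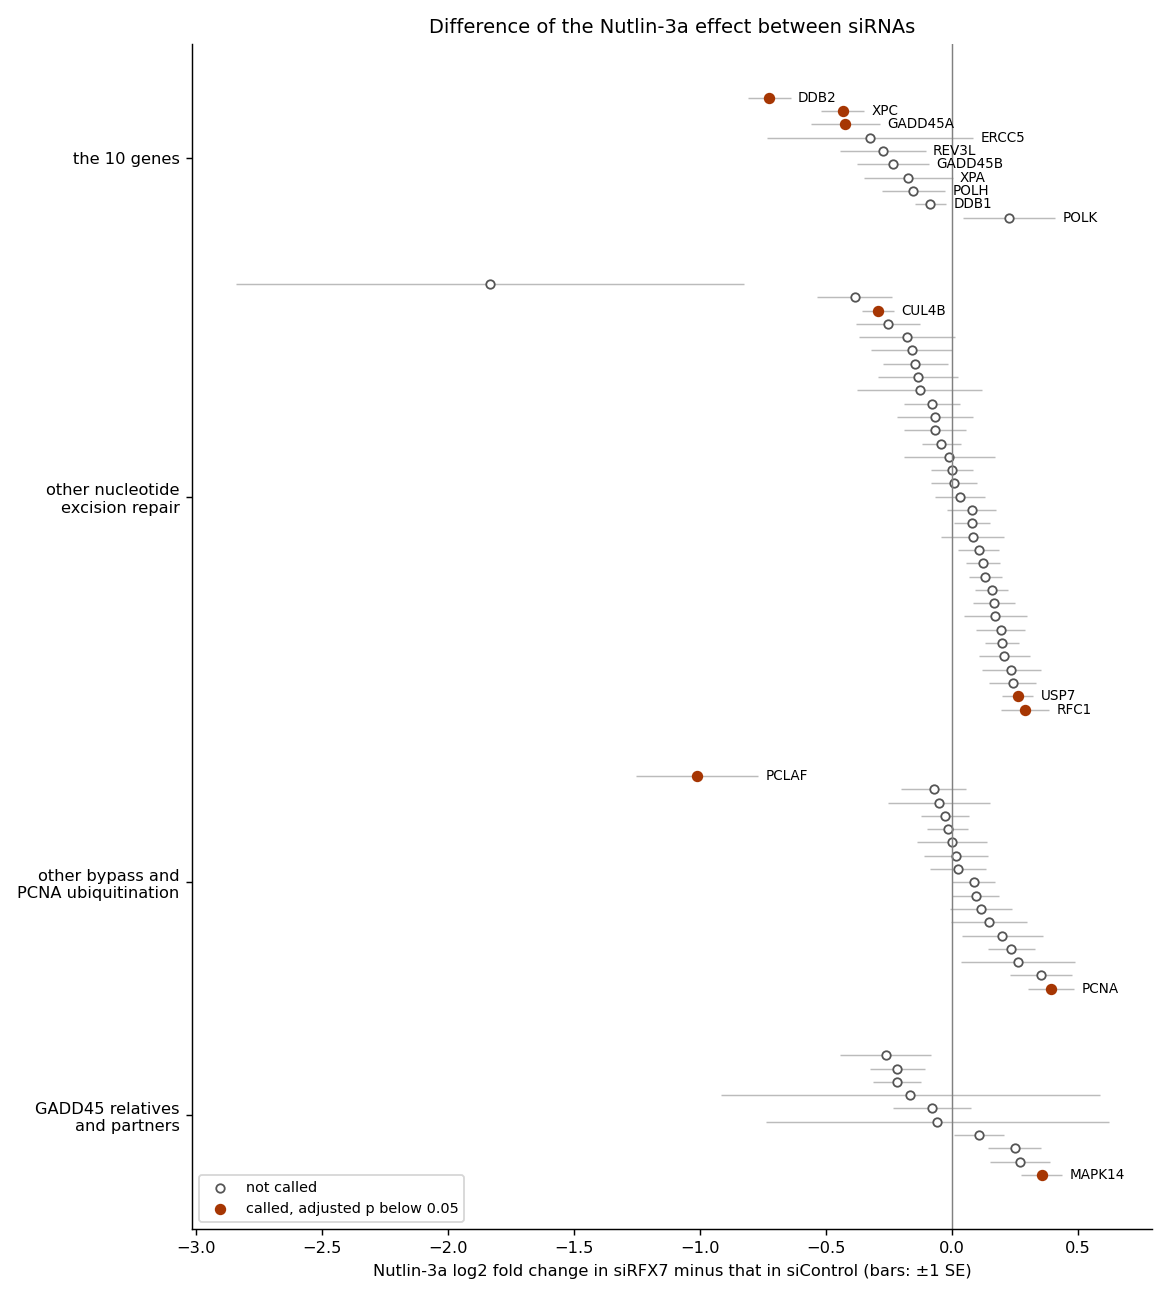
Interaction (Nutlin-3a log2 fold change in siRFX7 minus that in siControl) with bars of 1 SE for the 10 genes and for 3 lists of other genes of these pathways, with filled points for genes called at an adjusted p below 0.05 by the z test. DDB2, at -0.73, lies farthest left of the 10, and the wide bar far left in the excision repair list is GTF2H4, a gene with at most 10.1 normalized counts in a group.

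Among other genes of the same pathways, falls with Nutlin-3a outnumbered rises in 2 of the 3 lists. Of 33 other nucleotide excision repair genes, 7 were called higher and 17 lower in siControl per the authors' deposited table (22% and 21.2% of all genes), with a median of -0.11. The share called higher is near the background. ERCC1, the partner of the nuclease that cuts on the 5′ side, rose by 0.58, and ERCC6, which acts in repair of transcribed genes, rose by 0.52 on the log2 scale per the authors' deposited table (DESeq2 adjusted p 3.64e-24 and 6.15e-06). The largest falls were in POLE, a replicative polymerase, at -2.69 and RPA3, a subunit of the single-strand binding protein, at -2.00 per the authors' deposited table (DESeq2 adjusted p 1.29e-232 and 2.61e-29). In siRFX7, 5 were called higher and 16 lower per the authors' deposited table (21.7% and 19.7% of all genes), with a median of -0.16. ERCC1 shares 28.6% of its exon bases with CD3EAP, so its count is uncertain.

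For the knockdown, 2 of these 33 were called higher and 10 lower in DMSO, and 4 higher and 8 lower in Nutlin-3a, per the authors' deposited tables. Over all genes 29% and 28.6% were called in either direction. As shares of all genes, 13.5% were higher and 15.5% lower in DMSO, and 15% and 13.6% in Nutlin-3a. In both treatments more of the 33 were called lower than higher, and this lean was not tested. In Nutlin-3a, MNAT1 and RPA2 were higher by 0.25 and 0.23, and XRCC1, a ligation partner, was lower with -0.64 per the authors' deposited table (DESeq2 adjusted p 0.0188, 0.00103 and 2.76e-07). TFIIH is the complex that opens the helix around a lesion. Its subunit gene GTF2H4 was lower with -1.91 per the authors' deposited table (SE 0.75, DESeq2 adjusted p 0.0398), from 10.1 to 2.69 normalized counts, and 79.0% of its exon bases lie in VARS2 too. XRCC1 shares 24.0% of its exon bases with other genes. The interaction was called for 3 of the 33, beside 6.2% of all genes. It was -0.29 for CUL4B, a scaffold of the ligase that holds DDB1 (adjusted p 2.47e-04 by the z test), 0.29 for the clamp loader subunit RFC1 (adjusted p 0.0407) and 0.26 for the deubiquitinase USP7 (adjusted p 8.04e-04).

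Of 17 other bypass and PCNA ubiquitination genes, 13 were called lower and 1 higher with Nutlin-3a in siControl per the authors' deposited table (21.2% and 22% of all genes), with a median of -0.70. The largest falls were -3.64 for PCLAF, a PCNA-binding protein, and -2.65 for USP1, which removes ubiquitin from PCNA, per the authors' deposited table. SPRTN, a protease for DNA-protein crosslinks, was the 1 that rose, by 0.29 per the authors' deposited table (DESeq2 adjusted p 7.69e-04). In siRFX7, 11 were lower and 1 higher per the authors' deposited table (19.7% and 21.7% of all genes), with a median of -0.72. POLH and REV3L, which rose, thus differ in direction from most of these genes. PCLAF shares 28.8% and SPRTN 12.7% of its exon bases with another gene.

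The knockdown lowered 8 of the 17 and raised 1 in DMSO, and lowered 4 and raised 2 in Nutlin-3a, per the authors' deposited tables. Over all genes 15.5% were lower and 13.5% higher in DMSO, and 13.6% and 15% in Nutlin-3a. In Nutlin-3a, PCNA, the sliding clamp on which bypass polymerases act, was higher by 0.46 and SPRTN by 0.28, and PCLAF was lower with -1.03 and the polymerase gene POLI with -0.34 per the authors' deposited table. PCNA stood at 11039 ± 354 (SE, n = 3) with DMSO and 8731 ± 281 with Nutlin-3a in siControl cells, and at 11574 ± 371 and 12008 ± 385 in siRFX7 cells. Its siControl Nutlin-3a group was the low one. The interaction was called for PCNA at 0.39 (adjusted p 0.001 by the z test) and for PCLAF at -1.01 (adjusted p 0.00116), beside 6.2% of all genes.

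Among 10 GADD45 relatives, partners and effectors, Nutlin-3a raised 3 and lowered 3 in siControl cells, and raised 3 and lowered 2 in siRFX7 cells, per the authors' deposited tables. Over all genes 22% and 21.2% were called in siControl and 21.7% and 19.7% in siRFX7, and the medians of the list were -0.15 and 0.07. CRIP2, a LIM domain protein gene, rose by 1.55 and PPM1D, a phosphatase that turns off p38 and p53, by 1.45 in siControl per the authors' deposited table. A link of CRIP2 to GADD45 proteins was not checked here, so its values are no result about GADD45 partners. Falls were as many as rises in siControl. BRCA1 fell by 4.12 and MAP3K4, the kinase that GADD45 proteins activate, by 0.73 per the authors' deposited table. With siRFX7, 4 were called higher and 3 lower in DMSO and 3 higher and 1 lower in Nutlin-3a per the authors' deposited tables, beside 29% and 28.6% of all genes called. In Nutlin-3a these included CRIP2 at 0.55, the glycosylase gene TDG at 0.52 and BRCA1 at -0.78 per the authors' deposited table. MAPK14, the p38 kinase gene, was the 1 gene of this list called for the interaction, at 0.35 (adjusted p 5.33e-04 by the z test).

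Set per length, the order of the 10 genes was similar in the 4 groups apart from the genes that Nutlin-3a or siRFX7 moved. Per kilobase of annotated exon, DDB1 had 1071 normalized counts in siControl DMSO, followed by GADD45A at 618, XPC at 348 and GADD45B at 246. POLH at 206 and DDB2 at 202 did not differ beyond 1 SE, and XPA came next at 181. REV3L at 74.5 and POLK at 67.0 also did not differ beyond 1 SE, and ERCC5 was last at 2.55. This length joins all annotated exons of a gene, 13950 bases for DDB1 and 2069 for GADD45A, and the SE includes no error of it. The treatments changed the top of the order by this length. With Nutlin-3a in siControl, GADD45A at 2165.5 per kilobase stood above DDB1 at 1381, and POLH at 740 stood above DDB2 at 349 and GADD45B at 271. In counts DDB1 stayed above GADD45A in that group, at 19261 and 4480, and the order by other transcript lengths was not tested. In siRFX7 DMSO, DDB2 at 394 per kilobase did not differ from XPC at 406 beyond 1 SE. In siRFX7 Nutlin-3a, POLH at 801 per kilobase did not differ from XPC at 831 beyond 1 SE.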

How the data were processed

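PolyA RNA was sequenced in 12 libraries, 3 per group. Only the authors' 4 DESeq2 result tables were used, and no values per library. Per the file headers, the mean normalized count (counts divided by size factors, a signal) and the log2 fold change with its error are those deposited. The deposited statistic is a score, the log2 fold change over its error, and the deposited p-value columns hold the authors' p and Benjamini-Hochberg adjusted p-values. Per the submitters' processing notes, tools included Trimmomatic 0.39, featureCounts 1.6.5 and DESeq2 1.20.0, with build hg38; the aligner, annotation and strand setting are not given in the sources used here. Genes were listed from a mean normalized count of 0.998 in the Nutlin-3a tables, 2.98 in the siRFX7 table in DMSO and 3.78 in that in Nutlin-3a, and all 10 genes passed in each table.

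With the knockdown tables taken as siRFX7 over siControl, fold changes of the 4 tables closed within 1.29e-14; with the reverse direction the median error was 0.374. Group means were rebuilt from the overall mean and the fold changes, and their errors from the deposited errors (differing by at most 0.511% when rebuilt for the 10 genes). For the interaction a z test (two-sided) was used, with Benjamini-Hochberg adjustment over 23195 genes. It takes the errors as known. Exon overlaps and lengths came from GENCODE release 29 (GRCh38; 23164 of 23195 identifiers matched), and promoter letters from RefSeq GRCh38.p14. Alternatives were an adjusted p of 0.01, a minimum absolute log2 fold change of 0.58, equal total counts, centring on the median gene with a mean of at least 100, a mean count of at least 10, a t reference with 8 degrees of freedom, Holm adjustment and, for the interaction, the knockdown tables. Scripts used Python 3.11.15, pandas 2.3.3, scipy 1.17.1 and statsmodels 0.14.6, and were tested on simulated data. The edgeR test planned for counts was not used, as the tables hold statistics.

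The 10 genes and the lists were chosen with earlier results of these data known. Named from each list were up to 2 called genes with the largest change in each direction, for Nutlin-3a in siControl and for siRFX7 in Nutlin-3a, and up to 3 for the interaction. MDM2, CDKN1A and RFX7 served as checks.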

Additional observations from a re-analysis of the deposited data

Results flagged for a closer look

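The Nutlin-3a response differed between siControl and siRFX7 cells for the following genes, by the two-sided z test of the interaction with Benjamini-Hochberg adjustment over all genes. Among the 10 repair and GADD45 genes, the interaction on the log2 scale was -0.73 for DDB2, -0.435 for XPC and -0.42 for GADD45A. In the lists of other pathway genes it was -0.29 for CUL4B, 0.29 for RFC1, 0.26 for USP7, 0.39 for PCNA, -1.01 for PCLAF and 0.35 for MAPK14. Among the genes named as checks or markers it was -0.69 for MDM2, -0.93 for CDKN1A and -1.70 for ACTA2. With Nutlin-3a, DDB2 was higher in siControl (0.79) and not called in siRFX7 (0.06), and CUL4B was not called in siControl cells (0.05) and was lower in siRFX7 (-0.25), per the authors' deposited tables. PCNA and MAPK14 were lower with Nutlin-3a in siControl (-0.34 and -0.29) and not called in siRFX7 (0.05 and 0.06), per the authors' deposited tables. XPC, GADD45A, RFC1, USP7 and PCLAF were called for Nutlin-3a in the same direction under both siRNAs per the authors' deposited tables. Under the t reference the interactions of XPC (adjusted p 0.0635) and GADD45A (adjusted p 0.27) were not called. CUL4B, RFC1, USP7, PCNA, PCLAF and MAPK14 had larger adjusted p-values by the z test than XPC, and so rank behind XPC under the t reference too.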

How the results depend on the processing

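Of 360 repeats of the single-gene values, 327 kept direction and side of the threshold. That share is no measure of how stable the calls are, because a value not called at first could not be called under a stricter setting. The repeats that lost a call were 3 at an adjusted p of 0.01 and 12 with a minimum absolute log2 fold change of 0.58. With the t reference 6 lost it, and with Holm adjustment 10. With a minimum absolute log2 fold change of 0.58, calls among the 10 genes fell to 6 for Nutlin-3a in siControl and 3 in siRFX7, and DDB1 was called in neither. They fell to 1 for siRFX7 in DMSO (DDB2), 0 for siRFX7 in Nutlin-3a and 1 for the interaction (DDB2). With the t reference, calls fell to 7 for Nutlin-3a in siControl (without POLK) and 2 for siRFX7 in DMSO (DDB2 and XPC). They fell to 2 for siRFX7 in Nutlin-3a (DDB2 and XPC) and 1 for the interaction (DDB2). Holm adjustment left 1 call for siRFX7 in DMSO (DDB2) and 0 in Nutlin-3a, and also ended the Nutlin-3a calls of ERCC5 and POLK in siControl and of REV3L in siRFX7, and the GADD45A interaction. The siRFX7 value of POLK in DMSO, not called, turned from -0.03 to 0.0297 at equal total counts and to 0.0063 when centred on the median gene. Equal totals shifted log2 values by at most 0.06 in size. Taking the interaction from the knockdown tables, or keeping genes with a mean count of at least 10, changed no call among the 10 genes.

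No paired analysis was possible because the tables hold statistics of groups and no values per library. For the same reason, leaving out single replicates and the edgeR test with TMM were not run. Among the 10 genes ERCC5, with 21.0 to 47.1 normalized counts, had the widest log2 errors (0.27 to 0.31) and also the largest dispersion (0.0287), and DDB1 the smallest of both (0.04 and 0.00131). The parts of count and dispersion were not tested.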
